A study of Homo sapiens with 6 samples.

Results

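The PTP4A genes encode the phosphatases of regenerating liver (PRL), with PTP4A1 for PRL-1, PTP4A2 for PRL-2 and PTP4A3 for PRL-3. All 3 genes, of 17411 genes with a probe and a symbol, were taken by symbol from the annotation of the nONCOchip, a custom single-color oligonucleotide array. The family was picked on measured values of these arrays, because PTP4A3 was among the genes called higher after interleukin-6 (IL-6) was returned. PTP4A1 and PTP4A2 entered by their names. The contrast of all members is therefore given as a description, with errors and without p-values. PTP4A3 was represented by 1 probe, PTP4A1 by 3 and PTP4A2 by 5, and all 9 probes lay above the array median on all 6 arrays.

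PRL phosphatases are small enzymes of the dual-specificity class of cysteine-dependent phosphatases. A prenyl group on the CAAX motif at their C terminus anchors them to membranes. They bind the CNNM proteins, which take part in magnesium transport, and PRL-3 is best known for its raised levels in metastatic colorectal cancer and in myeloma cells.

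INA-6 is a human multiple myeloma cell line whose growth depends on IL-6, a cytokine that activates the transcription factor STAT3. RNA was taken from INA-6 cells 13 h after IL-6 had been removed (withdrawn, 3 samples) and from cells that got IL-6 back for 1 h at the end of such a withdrawal (restimulated, 3 samples), each on its own array. No sample of cells kept in IL-6 throughout was analysed here, so the level before withdrawal is not given. The line is a single tumor-derived line, and the replicates are termed biological with no word on separate cultures, so every error and p-value covers the spread among these 6 samples alone, which may be technical.

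Values are log2 intensities after quantile normalization, on which the median of an array lay between 6.84 and 6.85 and the scanner ceiling at 16.00. All 9 measured markers of plasma cells, SDC1 and JCHAIN among them, lay above the median on all arrays, and of the 3 markers of other B cells, PAX5 and CD22 lay above it on all 6 arrays and MS4A1 on 1. Of the markers of other cell types, EPCAM, CDH1, CD3D, LYZ, CSF1R and COL1A2 were not above it on any array. KRT19, COL1A1 and DCN were above it on 1 array. CD14, CD2, CD3E and HBB, from the myeloid, T cell and erythroid lists, were above it on all 6. CD2 and CD14 differed by -0.45 and -0.55 between restimulated and withdrawn arrays without passing the threshold used below, and PRDM1, a plasma cell factor, passed it at 1.29. The part of these markers in the results was not tested. Probe numbers were joined to spots by the geometry of the array and not by a key in the files, so every gene name rests on this match.

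Of the RefSeq promoter windows, each from 250 bases before to 50 after a transcription start on GRCh38.p14, 4 belonged to PTP4A1 and 2 to PTP4A2. None belonged to PTP4A3, so no sequence of that gene is shown. For each of these genes 1 window is printed. The groups did not overlap on any probe of PTP4A1 and overlapped on every probe of PTP4A2. Neither gene passed the threshold used below by its brightest probe, and a link between letters and values was not tested. The windows and motifs were chosen after the sequences were seen. Capitals mark the CCAAT box (CCAAT), the TATA box (TATAAA), the GC box (GGGCGG) and the core of cyclic AMP response elements (TGACGT), each searched on both strands, so that CCAAT can read ATTGG and GGGCGG can read CCGCCC. The letters of these motifs do not overlap each other in the printed windows.
PTP4A1, chr6:63572230-63572529, plus strand: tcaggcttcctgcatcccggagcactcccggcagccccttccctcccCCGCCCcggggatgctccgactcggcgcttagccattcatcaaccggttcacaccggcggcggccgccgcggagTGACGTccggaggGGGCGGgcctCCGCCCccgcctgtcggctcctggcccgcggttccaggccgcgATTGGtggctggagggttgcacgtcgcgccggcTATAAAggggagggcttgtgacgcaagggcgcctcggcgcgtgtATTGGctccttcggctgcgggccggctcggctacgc
PTP4A2, chr1:31938319-31938618, minus strand: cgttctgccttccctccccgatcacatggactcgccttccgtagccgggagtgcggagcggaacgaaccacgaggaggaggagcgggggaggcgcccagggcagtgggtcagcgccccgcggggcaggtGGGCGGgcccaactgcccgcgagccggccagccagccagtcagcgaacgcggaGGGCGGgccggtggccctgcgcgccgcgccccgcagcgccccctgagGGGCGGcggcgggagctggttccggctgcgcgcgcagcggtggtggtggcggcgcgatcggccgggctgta
The PTP4A1 window held 1 TGACGT, 2 CCAAT boxes, 1 TATAAA and 3 GC boxes, and the PTP4A2 window held 3 GC boxes and none of the other motifs. The other 3 windows of PTP4A1 held none of these motifs except 1 TATAAA, so the printed window does not stand for them. The other window of PTP4A2 held 4 GC boxes and none of the other motifs. Of all 35116 windows, 7.98% held TGACGT, 34.6% CCAAT, 11.5% TATAAA and 45.0% GGGCGG. The motif of STAT factors, searched as TTCNNNGAA on both strands, was in none of the 6 windows of PTP4A1 and PTP4A2 and in 7.66% of all windows. These matches describe the letters of the windows only. The GC content was 72.7% in the printed PTP4A1 window and 77.3% in that of PTP4A2, against a median of 58.7% over all windows, while the other 3 windows of PTP4A1 had between 36.0% and 40.0%.

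PTP4A3, the gene of PRL-3, was measured at 10.75, 10.82 and 11.16 on the restimulated arrays and at 9.48, 9.63 and 9.46 on the withdrawn arrays (log2 intensity). The groups did not overlap, and the lowest restimulated value lay 1.12 above the highest withdrawn one. The restimulated mean was 10.91 ± 0.22 (SD, n = 3), against a withdrawn mean of 9.52 ± 0.09 (SD, n = 3). This corresponded to a log2 difference of 1.39 ± 0.12 (SE) with a 95% interval of 1.09 to 1.69, or 2.61-fold (2.12 to 3.22). The gene was picked for this rise, so the difference and its interval may overstate it. In RNA of whole cultures, more cells with the transcript and more transcript per cell cannot be told apart. The largest deviation of a single array was that of restimulated replicate 3, 0.25 above the mean of its group. Without this array the log2 difference was 1.26, and without any other single array it lay between 1.36 and 1.47. PTP4A3 was measured with a single probe, for transcript NM_032611, so no second probe of the gene can be set beside it.

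**Figure D1:**
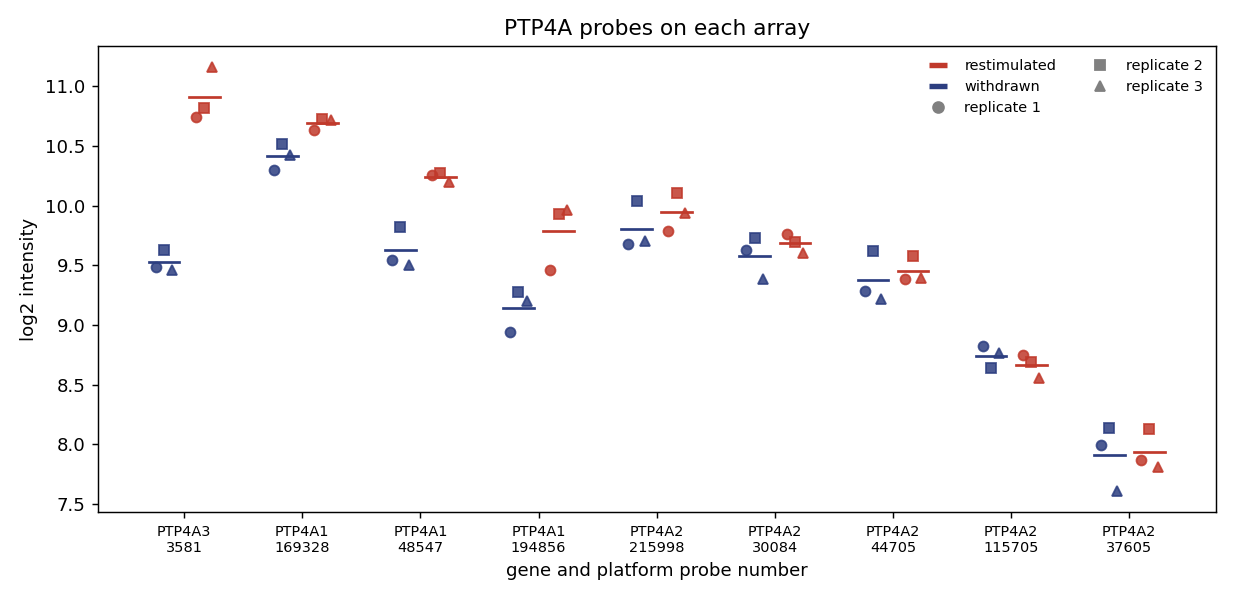
Log2 intensity (vertical axis) of the 9 PTP4A probes (horizontal axis, gene and platform probe number) on each array. Symbols stand for replicates, colors for groups and bars for group means, and levels of different probes are not comparable. The restimulated values of PTP4A3, at or above 10.75, lie clear of the withdrawn values, at or below 9.63, and the 3 probes of PTP4A1 also show no overlap, while all 5 probes of PTP4A2 do.

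By the size of its difference PTP4A3 stood at rank 10 of 12703 genes tested. Directly above it were PLK2, a polo-like kinase (1.76 ± 0.13 SE), and HEG1, a transmembrane receptor (1.43 ± 0.12 SE), and directly below it ZFP36, which destabilizes AU-rich mRNAs (1.38 ± 0.15 SE), and MAP3K8, a kinase of the MAPK cascade (1.32 ± 0.09 SE). PTP4A3 and its 2 next neighbors in this order differed by less than 1 SE. Of the members, PTP4A3 was the 1 gene of 3 that passed the limma threshold over all genes (adjusted p below 0.05), where 0.244% of all genes tested passed. Nothing is read from this count, because the call of PTP4A3 had led to the choice of the family. The call was lost in 5 of 6 fits that left out 1 array, all but the fit without restimulated replicate 3, and with the replicate number as a block. These fits have fewer arrays or fewer degrees of freedom.

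PTP4A1, which encodes PRL-1 and was first found as an early gene of regenerating liver, was measured with 3 probes for transcript NM_003463. The brightest, probe 169328, read 10.63, 10.73 and 10.72 on the restimulated and 10.30, 10.52 and 10.42 on the withdrawn arrays. Probe 48547 read 10.26, 10.27 and 10.20 on the restimulated and 9.54, 9.82 and 9.51 on the withdrawn arrays. Probe 194856 read 9.46, 9.93 and 9.97 on the restimulated and 8.94, 9.28 and 9.20 on the withdrawn arrays. Every restimulated value of a probe was above every withdrawn value of the same probe, with gaps of 0.12, 0.38 and 0.18 between the groups. The brightest probe differed least, by 0.28 ± 0.08 (SE) with a 95% interval of 0.08 to 0.48. The other probes differed by 0.62 ± 0.10 (SE, 0.37 to 0.87) and 0.64 ± 0.16 (SE, 0.25 to 1.04), or 1.54-fold and 1.56-fold. The size of the PTP4A1 difference therefore depended on the probe, with 0.52 ± 0.10 (SE) for the mean over the 3 probes against 0.28 for the brightest. Neither the brightest probe nor the mean passed the threshold over all genes. Probe 48547 did not pass over all named probes, but did under 5 of the alternatives in processing.

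Over the 6 arrays the 3 probes of PTP4A1 correlated pairwise with r between 0.85 and 0.96, which includes the difference between the groups that they share. The arrays deviated in like manner within a group on 2 of them, where restimulated replicate 1 and withdrawn replicate 1 were the lowest of their groups. On probe 48547 restimulated replicate 3 and withdrawn replicate 3 were the lowest instead. Withdrawn replicate 2 was the highest withdrawn array on all 3 probes and also for PTP4A3. The mean over all genes tested was likewise highest on this array, at 9.21 against 9.15 to 9.19 on the others. Without withdrawn replicate 2 the log2 difference was 0.33 for PTP4A1 and 1.44 for PTP4A3.

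PTP4A2 encodes PRL-2, which is expressed in many tissues. Its brightest probe, 215998, read 9.78, 10.11 and 9.94 on the restimulated and 9.68, 10.04 and 9.70 on the withdrawn arrays, with a log2 difference of 0.14 ± 0.13 (SE). The groups overlapped, and replicate 2 was the highest array in both. The 95% interval, -0.18 to 0.46, held 0 but also differences as large as that of the brightest PTP4A1 probe. With 1 array left out, the difference of probe 215998 lay between 0.06 and 0.26, the latter without withdrawn replicate 2. The other 4 probes had restimulated means between 7.93 and 9.69 and withdrawn means between 7.91 and 9.58, and their groups overlapped as well. Their differences were 0.10 ± 0.11, 0.08 ± 0.13, -0.08 ± 0.09 and 0.02 ± 0.16 (SE), and each interval held 0. The highest upper bound among the 5 probes was 0.46 and the lowest lower bound -0.36.

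The 5 PTP4A2 probes did not share one pattern over the arrays. Pairwise r ranged from -0.72 to 0.93 with a median of 0.57 over 10 pairs. Probe 115705, annotated with the sequence AF208850 and not with a RefSeq transcript, had the 1 negative difference, and withdrawn replicate 2 was its lowest withdrawn array, whereas this array was the highest withdrawn one on the other 4 probes. The probe read 8.75, 8.69 and 8.56 on the restimulated and 8.83, 8.64 and 8.76 on the withdrawn arrays. Probes for NM_080391 (215998 and 37605) and for NM_080392 (30084 and 44705) all differed by less than 0.15.

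**Figure D2:**
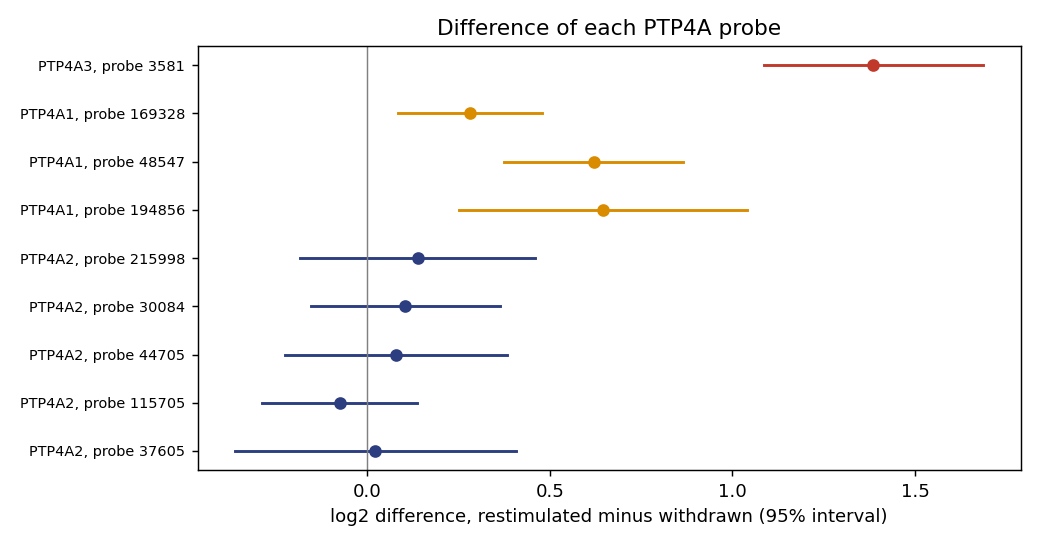
Log2 difference between restimulated and withdrawn arrays (horizontal axis) for each PTP4A probe, with 95% intervals from the fit across all tested probes with a symbol, 3 arrays per group. PTP4A3 lies at 1.39, the 3 probes of PTP4A1 between 0.28 and 0.64, and the 5 probes of PTP4A2 between -0.08 and 0.14 with intervals that hold 0.

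Counted over probes, the 1 probe of PTP4A3 was the only one of the 9 that passed the threshold, where 0.263% of 18613 tested probes with a symbol passed. Groups that did not overlap, with the restimulated arrays higher, were found for 4 of 9 PTP4A probes and 6.15% of all these probes, and for 2 of 3 PTP4A genes, PTP4A3 and PTP4A1, by their brightest probe, and 5.8% of all genes tested. The probes of a gene share its RNA, so the 4 probes stand for 2 genes. PTP4A3 entered these counts because of its values.

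The genes whose levels ran most like those of PTP4A3 over the 6 arrays were OXCT2, a ketone body enzyme known from testis (r = 0.996), ACBD3, a Golgi protein (0.994), DUSP5 (0.992), JUNB, an AP-1 factor (0.991), and BTG2, an anti-proliferative gene (0.991). All 5 showed restimulated replicate 3 as the highest array. OXCT2 and JUNB differed by 1.08 ± 0.07 (SE) and 1.13 ± 0.08 (SE), DUSP5 by 0.92 ± 0.10 (SE), BTG2 by 0.72 ± 0.09 (SE) and ACBD3 by 0.34 ± 0.07 (SE). A high r over 6 arrays in 2 groups largely restates that both genes separate the groups.

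For PTP4A1 the 5 most similar genes were GRB2, an adaptor of receptor signaling, BRD2, a bromodomain protein, PGM3, an enzyme of amino sugar synthesis, LDAH and PADI3, with r between 0.992 and 0.995 and log2 differences between 0.21 and 0.33. None of these passed (limma adjusted p between 0.440 and 0.587). For PTP4A2 they were MTCH2, TMEM185A, TPI1, DHX15 and METTL9, with r between 0.993 and 0.998 and differences between 0.07 and 0.18, where replicate 2 was the highest array in each group. The top r of PTP4A2 was thus as high as that of PTP4A3, although its groups overlapped.

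The related phosphatases were compared by lists, of which 54 of 79 genes were tested. DUSP5, a nuclear phosphatase of the MAP kinase ERK, rose from 9.996, 10.14 and 10.17 on the withdrawn to 10.89, 11.01 and 11.17 on the restimulated arrays. The groups did not overlap (log2 difference 0.92 ± 0.10 SE, limma adjusted p = 0.0403), although the call was lost in each fit that left out 1 array and in the blocked fit. It was the 1 gene of these 54 that passed in the upward direction, and none passed downward, where 0.244% of all genes tested passed in either direction. Nothing further is read from 1 gene. At an unadjusted p below 0.05 there were 4, DUSP5, DUSP6, DUSP26 and SSH3. At that threshold lay 1015 of the 12703 genes tested (7.99%), so 4 of 54 was no larger a share than over all genes. The median difference of the 54 genes was -0.01, against 0.01 for all genes tested.

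Among the 10 MAP kinase phosphatases tested, DUSP6, the cytoplasmic ERK phosphatase, differed by -0.55 ± 0.09 (SE, limma adjusted p = 0.183), DUSP9 by -0.20 ± 0.11 (SE) and DUSP4 by -0.08 ± 0.06 (SE). None of the 12 non-receptor tyrosine phosphatases passed, and none had an unadjusted p below 0.05. PTPN6, which dampens cytokine receptor signaling, differed by 0.10 ± 0.08 (SE), PTPN7 by 0.25 ± 0.13 (SE), PTPN12 by 0.32 ± 0.22 (SE) and PTPN13 by 0.18 ± 0.16 (SE), with a list median of 0.09. None of the 8 receptor tyrosine phosphatases passed in the limma fit or at an unadjusted p below 0.05. PTPRC, the leukocyte antigen CD45, differed by 0.10 ± 0.11 (SE), PTPRU by -0.29 ± 0.14 (SE), PTPRZ1 by 0.10 ± 0.09 (SE) and PTPRG by 0.07 ± 0.09 (SE).

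Of 24 other dual-specificity and cysteine-based phosphatases none passed over all genes, and 2 had an unadjusted p below 0.05, a share close to the 7.99% of all genes. These were DUSP26 (-0.51 ± 0.12 SE) and SSH3, a slingshot phosphatase of cofilin (-0.25 ± 0.07 SE). STYXL1, a pseudophosphatase, differed by 0.46 ± 0.19 (SE) and PTPDC1 by -0.24 ± 0.11 (SE). The lowest difference of this list, -1.13 ± 0.94 (SE) for CDC14B, rested on withdrawn replicate 3, which read 10.81 while the other 5 arrays read between 7.35 and 7.42.

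**Figure D3:**
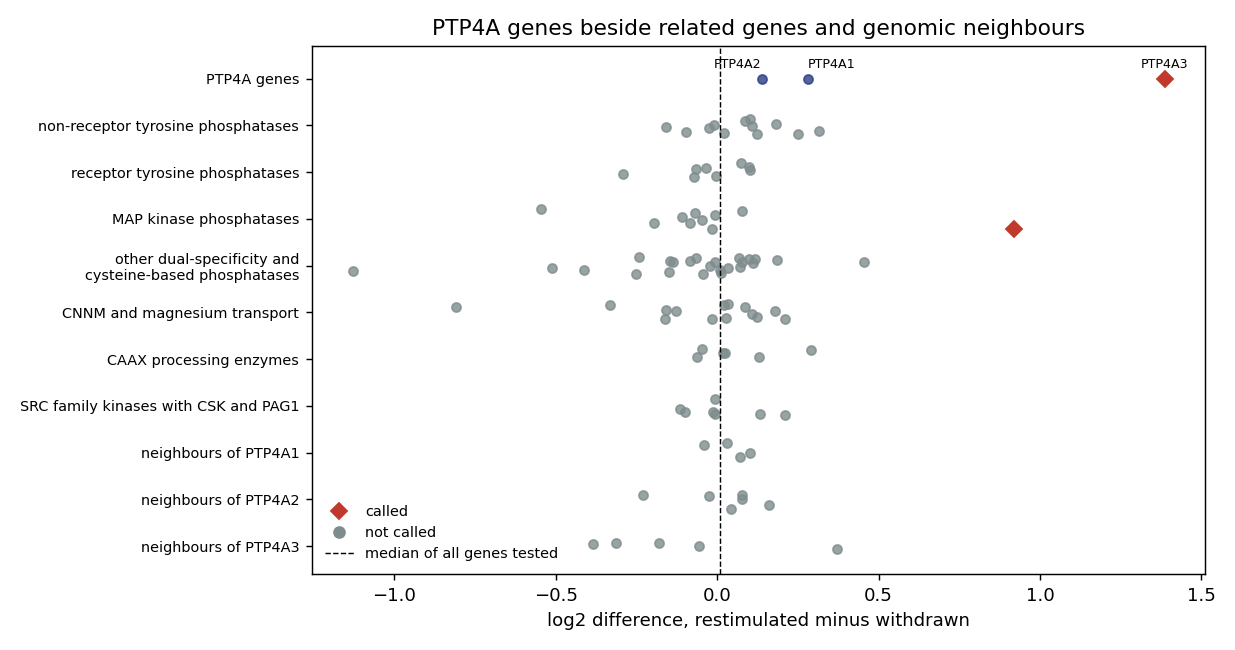
Log2 differences between restimulated and withdrawn arrays (horizontal axis) for the PTP4A genes, related genes and genomic neighbors, 1 point per tested gene by its brightest probe. Diamonds mark genes past the threshold over all genes and the dashed line the median of all genes tested, 0.01. PTP4A3 at 1.39 and DUSP5 at 0.92 are the genes past the threshold, and the lists lie around the median.

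The partners and processing enzymes of PRL proteins showed no member past the threshold. Of 14 tested genes of magnesium transport, which include CNNM1 and CNNM3, none passed and 1 had an unadjusted p below 0.05, a share no larger than the 7.99% of all genes. CNNM1 differed by -0.13 ± 0.25 (SE) and CNNM3 by -0.16 ± 0.13 (SE), while CNNM2 and CNNM4 were not among the tested genes. The genes of the list with the smallest p were NIPAL2 (-0.33 ± 0.11 SE), NIPAL3 (0.12 ± 0.06 SE), NIPA2 (0.18 ± 0.11 SE) and TRPM7, a magnesium channel with a kinase domain (0.11 ± 0.08 SE). The median was 0.02. For SLC41A1, at -0.81 ± 0.81 (SE), withdrawn replicate 3 again stood apart, at 11.29 against 8.34 to 8.64 on the other arrays.

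Of the 6 enzymes that prenylate and trim CAAX proteins, none passed and 1 had an unadjusted p below 0.05, where 7.99% of all genes did. Nothing is read from this 1 gene, which was ICMT, which methylates the prenylated cysteine, at 0.29 ± 0.07 (SE, limma adjusted p = 0.441). Its groups did not overlap, as was so for 5.8% of all genes tested with the restimulated arrays higher. The protease ZMPSTE24 differed by 0.13 ± 0.09 (SE) and the farnesyltransferase subunits FNTA and FNTB by -0.06 ± 0.12 (SE) and -0.05 ± 0.12 (SE). PRL-3 is known to activate SRC in cultured cells. None of the 7 tested genes of the list of SRC family kinases and CSK passed or had an unadjusted p below 0.05. SRC differed by -0.12 ± 0.11 (SE), its negative regulator CSK by 0.21 ± 0.13 (SE), LCK by 0.13 ± 0.15 (SE) and FGR by -0.10 ± 0.12 (SE).

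The genes next to PTP4A3 on the chromosome were compared as far as they were tested. Of the 10 nearest protein-coding genes, 5 on each side, 5 were tested and none passed, with 2 at an unadjusted p below 0.05, 1 in each direction, where 7.99% of all genes lay. A count of 2 in 5 genes is given as a description only. DENND3 differed by 0.37 ± 0.11 (SE, limma adjusted p = 0.486), TSNARE1 by -0.38 ± 0.15 (SE), JRK by -0.31 ± 0.18 (SE), GPR20, the nearest of them, by -0.18 ± 0.16 (SE) and ADGRB1 by -0.06 ± 0.07 (SE). Among these 5 genes only the groups of DENND3 did not overlap, as was so for 5.8% of all genes tested with the restimulated arrays higher. The 95% intervals of the 5 genes ended at 0.63 at the most. They are not set against that of PTP4A3, which was picked for its high difference. Of 4 tested neighbors of PTP4A1 and 6 of PTP4A2 none passed or had an unadjusted p below 0.05. LGSN beside PTP4A1 differed by 0.10 ± 0.18 (SE), and KHDRBS1 near PTP4A2 by 0.16 ± 0.10 (SE). PHF3, PRIM2 and RAB23 near PTP4A1 lay between -0.04 and 0.07.

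**Figure D4:**
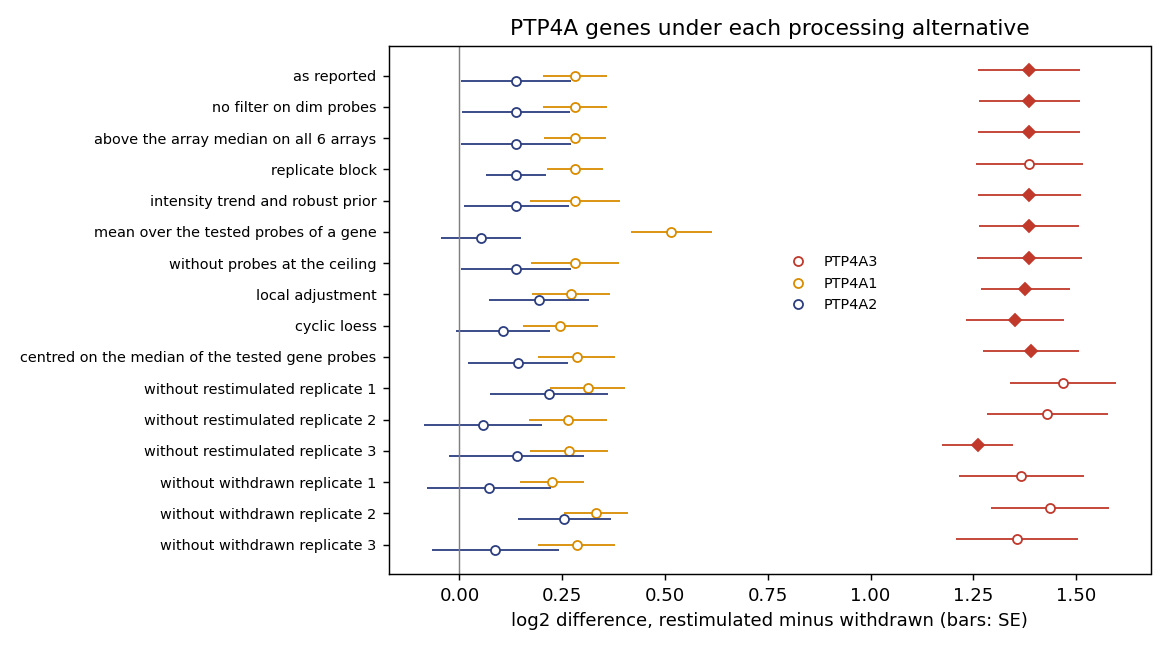
Log2 difference (horizontal axis, bars: SE) of PTP4A3, PTP4A1 and PTP4A2 as reported and under 15 alternatives (vertical axis). Filled diamonds mark fits in which the gene passed the threshold over all genes and open circles those in which it did not. PTP4A3 stays between 1.26 and 1.47, PTP4A1 between 0.23 and 0.52 and PTP4A2 between 0.05 and 0.26.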

How the data were processed

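The authors hybridized 1 sample per Agilent custom array, scanned in a GenePix instrument, normalized the arrays by quantiles and deposited log2 intensities per spot. R 2.9.0 and limma appear in the processing notes of the submitters. How background was treated was not given in the sources used here. Values were used as deposited. Probe numbers of the platform table were placed on the grid of 912 by 267 spots by a geometric rule inferred earlier from these data. Under it the mean levels of probes of 1 gene correlated with r = 0.450 over 7689 pairs. The value was 0.0145 under equal numbers and at most 0.0229 in 20 random pairings. As the rule came from these data, this is not an independent check of it. Symbols were updated through RefSeq (GRCh38.p14), by accession for 23835 probes, by symbol for 2495 and by an older symbol for 854. All 27216 named probes had 1 symbol, and 32 had no match and kept theirs.

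A probe was tested if above the array median on at least 3 of the 6 arrays. The test of restimulated against withdrawn arrays was that of limma 3.58.1 under R 4.3.3 (lmFit, eBayes, two-sided, Benjamini-Hochberg, threshold 0.05), over 12703 genes by their brightest tested probe. Errors of single probes came from the same fit over 18613 tested named probes. The scripts were tested on simulated data. The 15 alternatives were a replicate block, an intensity trend with a robust prior, 2 filters, averaging of the probes for each gene, removal of probes at the ceiling, a local adjustment, cyclic loess, centring and each array left out. Spots without a symbol were not used. Array precision is limited by 3 arrays per group. Named genes were all PTP4A probes, called list members or the 4 with the smallest p, tested neighbors and the most similar genes. CDC14B and SLC41A1 were named after their values were seen, as were the further neighbors and list members outside this rule. Members and lists were chosen with earlier results of these data known.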

Additional observations from a re-analysis of the deposited data

How the results depend on the processing

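The log2 differences of the 9 PTP4A probes, or of gene means where probes were averaged, were compared over the 15 alternatives. They moved by less than the spread between replicates in 128 of 129 comparisons. Many of these could not move. The 2 filters, the block, the trend and the removal of probes at the ceiling leave the difference of a probe unchanged. Averaging likewise leaves PTP4A3, with its 1 probe, unchanged. The count therefore says little about stability. Probe 48547 of PTP4A1 passed the threshold with the trend, without probes at the ceiling, with the local adjustment, after cyclic loess and when centred, at differences between 0.59 and 0.63. The exception in size was PTP4A1 with the mean over its probes, at 0.52 in place of 0.28. PTP4A3 lay between 1.26 and 1.47 when single arrays were left out and between 1.35 and 1.39 otherwise. Counts of called genes moved more. Against 31 genes over all tested and 1 in the related lists, they were 1 and 0 with the replicate block, 78 and 2 with an intensity trend and robust prior, and 65 and 2 with the local adjustment, which added DUSP6. Over all genes they were 58 without probes at the ceiling, 62 after cyclic loess and 55 when centred on the tested gene probes, and between 6 and 15 with 1 array left out, where the lists had 0. Fits with fewer arrays or a block have fewer degrees of freedom, and the other causes were not tested.

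Over all genes tested, same-numbered arrays did not deviate together (r = 0.05, -0.02 and -0.28 for replicates 1, 2 and 3). The replicate numbers are therefore not treated as pairs. With the block the difference of PTP4A3 was 1.39 ± 0.13 (SE), against an SE of 0.12 without it. On the PTP4A1 and PTP4A2 probes, except 115705, the SE was lower with the block. It was 0.07 in place of 0.13 on the brightest PTP4A2 probe and 0.09 in place of 0.16 on PTP4A1 probe 194856. The differences stayed the same, and none of these probes passed. All values rest on 3 arrays per group, on 1 probe for PTP4A3 and on the inferred match of probes to spots.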
